A study of Mus musculus with 8 samples.

Results

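The interferon response genes described here are a list of 42 mouse genes given by symbol. All 42 were found among the 49671 genes of the deposited count table, and all 42 were among the 19099 genes with enough reads to be tested. They were separated into 22 genes known mainly as targets of type I interferon, 12 known mainly as targets of interferon-gamma, and 8 nucleic acid sensors and transcription factors. The libraries were made from total RNA of whole shaved back skin of mice 8 weeks old, 4 libraries from wild-type mice (Flg genotype wt/wt) and 4 from mice lacking filaggrin (Flg genotype ko/ko). Flg encodes filaggrin, a protein of the outer epidermis needed for an intact skin barrier. The labels give no other allele, agent, strain or sex, and do not say whether each library came from a separate mouse, so p-values measure the spread between these samples, which may in part be technical.

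Interferons are secreted proteins that cells release on sensing viral or other foreign nucleic acid (type I) or that activated T cells and natural killer cells release (interferon-gamma). Type I interferon acts through the kinases Jak1 and Tyk2 on a complex that holds Stat2 and Irf9 and binds the interferon-stimulated response element in target promoters. Interferon-gamma acts through Jak1 and Jak2 on targets with the gamma-activated sequence in their promoters, and raises Irf1, itself a factor for a further round of targets. The target sets overlap, so the division into type I and interferon-gamma genes is one of degree. In skin, keratinocytes, immune cells and stromal cells can all respond.

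RefSeq promoter sequences of the mouse build GRCm38.p6 (mm10), from 250 bases before to 50 bases after the start of a gene, could be matched by symbol for 31 of the 42 members. The core of the response element was searched as GAAA, any 2 bases and GAAA, on either strand, and the gamma-activated sequence as TTCNNNGAA, which reads the same on both strands. The response element core was found in 19 of the 31 members (61.3%) and in 3.99% of 27025 genes with a promoter of the same length. The gamma-activated sequence was found in 10 of the 31 members (32.3%) and in 9.55% of those genes. By group, the response element core was in 9 of 16 type I members, 7 of 9 interferon-gamma members and 3 of 6 sensors and transcription factors, and the gamma-activated sequence in 4 of 16, 5 of 9 and 1 of 6. A match is a stretch of letters, not a measured binding site, and matches of the motifs can overlap each other. The start is that of the RefSeq promoter. In 14 of the 36 promoters of members, the 50 bases after it were those that open a GENCODE transcript of the gene.

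The promoter stretches below show the response element core, in capitals with any other whole match in the stretch, in type I members on which the results turn; each is written 5′ to 3′ on the strand of the gene and ends at or before its start. They lie at chr5:120777695-120777764 on the minus strand for Oas3, chr7:104465194-104465259 on the minus strand for Trim30a, chr19:34640774-34640843 on the plus strand for Ifit1, chr19:34583377-34583446 on the plus strand for Ifit3, chr19:34607773-34607842 on the plus strand for Ifit3b and chr4:156200845-156200914 on the minus strand for Isg15. The stretches of the neighbouring paralogs Ifit3 and Ifit3b are the same letter for letter, which is why both are shown.
Oas3: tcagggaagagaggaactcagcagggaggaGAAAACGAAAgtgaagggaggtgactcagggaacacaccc
Trim30a: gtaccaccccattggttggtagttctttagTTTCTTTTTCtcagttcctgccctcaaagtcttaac
Ifit1: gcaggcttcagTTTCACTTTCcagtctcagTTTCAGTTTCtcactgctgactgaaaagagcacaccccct
Ifit3: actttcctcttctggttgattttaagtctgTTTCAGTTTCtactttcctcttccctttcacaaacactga
Ifit3b: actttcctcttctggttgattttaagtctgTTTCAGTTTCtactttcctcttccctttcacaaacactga
Isg15: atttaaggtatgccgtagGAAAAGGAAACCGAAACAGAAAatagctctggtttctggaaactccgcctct

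The next stretches belong to interferon-gamma members and to Irf1, and end at or before the RefSeq start. Those of Irgm1 and Psmb8 lie inside the span of the gene used for counting, and that of Gbp3 runs into it. Gbp3 (chr3:142559975-142560043, plus strand) and Irgm1 (chr11:48871421-48871474, minus strand) hold the response element core, and Igtp (chr11:58199492-58199555, plus strand) holds both motifs side by side. Irf1 (chr11:53769894-53769962, plus strand) and Psmb8 (chr17:34198068-34198136, plus strand) hold the gamma-activated sequence and no response element core in the window searched.
Gbp3: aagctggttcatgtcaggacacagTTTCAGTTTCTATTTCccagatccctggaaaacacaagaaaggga
Igtp: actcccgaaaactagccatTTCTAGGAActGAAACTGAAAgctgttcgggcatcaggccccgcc
Irgm1: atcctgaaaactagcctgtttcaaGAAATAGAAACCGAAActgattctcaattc
Irf1: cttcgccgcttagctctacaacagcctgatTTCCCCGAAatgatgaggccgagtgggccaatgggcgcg
Psmb8: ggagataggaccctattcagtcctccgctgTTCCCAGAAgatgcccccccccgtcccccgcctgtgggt
Oasl1, Oasl2, Cmpk2, Ifi44, Xaf1, Psmb9, Irf7 and Irf9 hold neither motif in the window.

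Each library held between 18483242 and 38545957 counts. The targeted gene was checked first. In CPM, the read count of a gene scaled to the normalised size of its library, Flg had 66.9, 46.5, 56.1 and 66.6 in wild-type replicates 1 to 4 and 27.0, 24.7, 24.1 and 22.3 in knockout replicates 1 to 4. Every knockout library was below every wild-type library, and the log2 fold change of knockout over wild type was -1.27 ± 0.12 (SE, n = 4 per group; edgeR adjusted p = 0.003256; exact two-sided permutation p = 0.02857, the smallest that 70 assignments allow). The remaining Flg reads were 41.55% of the wild-type mean, and their position along the gene is not recorded in a count table. Over all genes tested, the calls at an adjusted p below 0.05 were 136 higher and 134 lower, and the median log2 fold change was -0.02. In bulk skin, fewer cells of a type and less RNA per cell cannot be told apart.

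Gbp4, a guanylate-binding protein gene, and Irf1, a transcription factor gene of the interferon-gamma pathway, fell in knockout skin. All 12 interferon-gamma targets had log2 fold changes below 0, while the 22 type I targets were split, with 12 above 0 and 10 below. The 2 of 42 members called lower stand against a background of 0.702% of all genes called lower. It called 0 members higher, against 0.712% of all genes; at an unadjusted p below 0.05, 3 members were higher and 11 lower, against 8.64% and 10.9% of all genes. The CPM values of the groups did not overlap for 1 member that was higher and 5 that were lower, against 5.57% and 5.95% of all genes. The 9 interferon-gamma members with an unadjusted p below 0.05 make up most of the 11 lower ones, and the other two are Irf1 and Irf9. All 3 higher ones, Oas3, Oasl1 and Trim30a, are type I members. The difference between the groups of members was not tested.

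**Figure D1:**
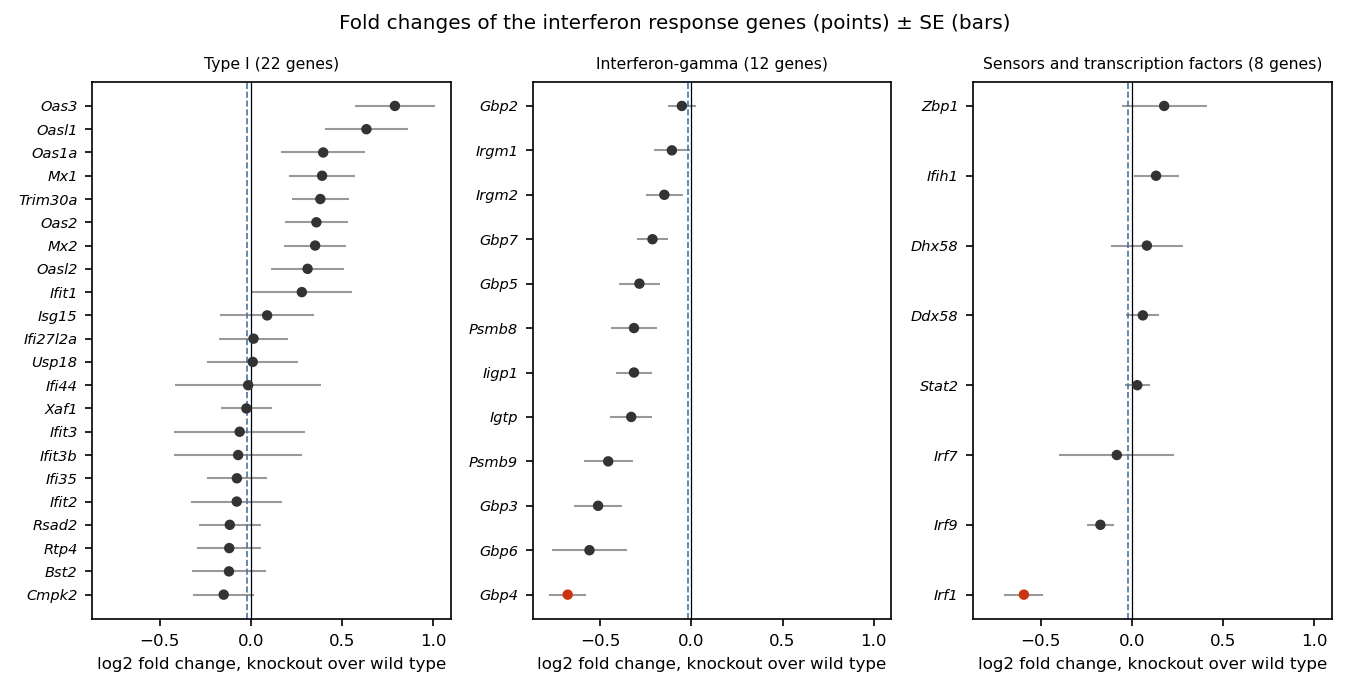
Log2 fold change of knockout over wild type for each member (points) with its standard error (bars), in 3 panels by group; red marks the members called at an adjusted p below 0.05, the solid line is 0 and the dashed line the median of all genes tested (-0.02). All 12 interferon-gamma members lie below 0, and the type I members lie between -0.15 and 0.79.

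**Figure D2:**
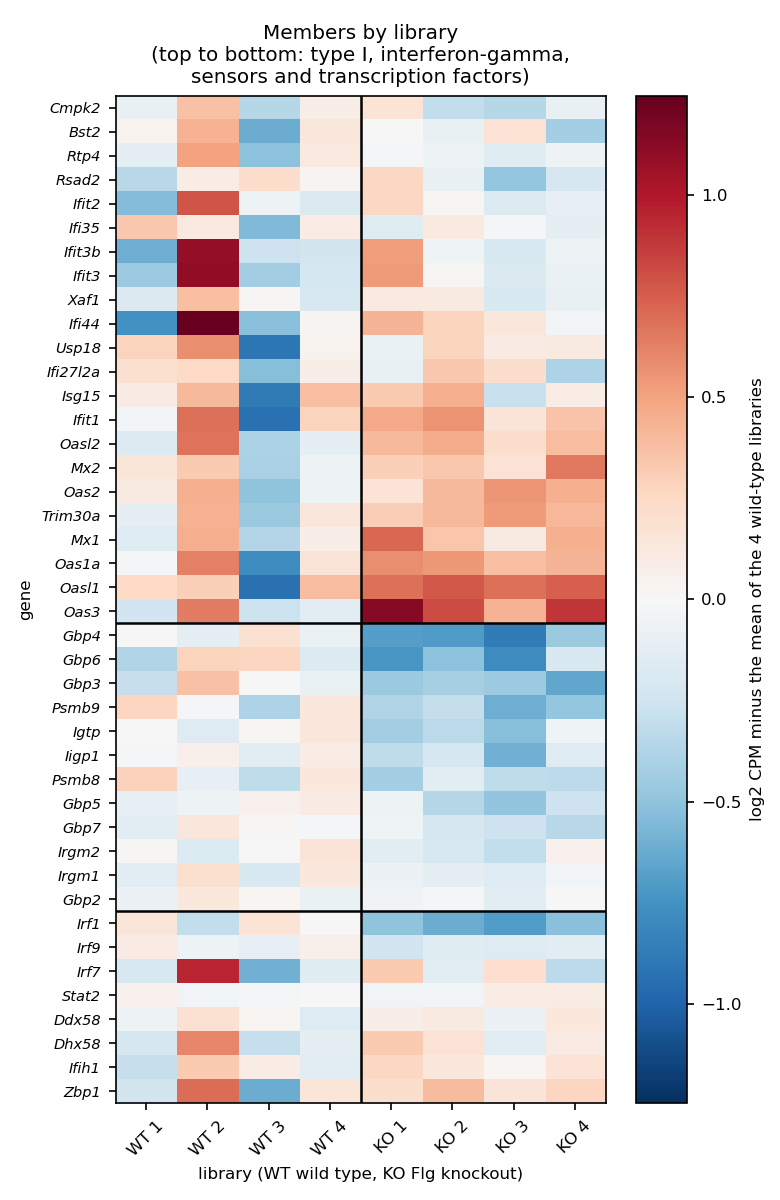
Log2 CPM of each member (row) in each library (column) minus its mean over the 4 wild-type libraries, with members ordered by fold change within their group. Wild-type replicate 2 is high and wild-type replicate 3 low for most type I members, and the knockout libraries are low for most interferon-gamma members.

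The members with the highest level per length in wild-type skin were Ifi27l2a, at 212.5 ± 47.2 RPKM (CPM per kilobase of exon; SD, n = 4), and Bst2, at 47.3 ± 13.2 RPKM. Ifi27l2a encodes a small protein induced by type I interferon, and Bst2 encodes tetherin, which holds budding virus at the cell surface. The highest interferon-gamma members were Iigp1 at 26.0 ± 1.87 RPKM and Gbp2 at 24.3 ± 1.67 RPKM, whose spreads reach each other. Stat2 (18.4 ± 0.50 RPKM) and Irf1 (18.3 ± 2.63 RPKM) were the highest of the sensors and transcription factors. The lowest members were Gbp6 at 0.665 ± 0.145 RPKM and Oas3 at 1.19 ± 0.40 RPKM. Every member had at least 51 reads in every library.

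**Figure D3:**
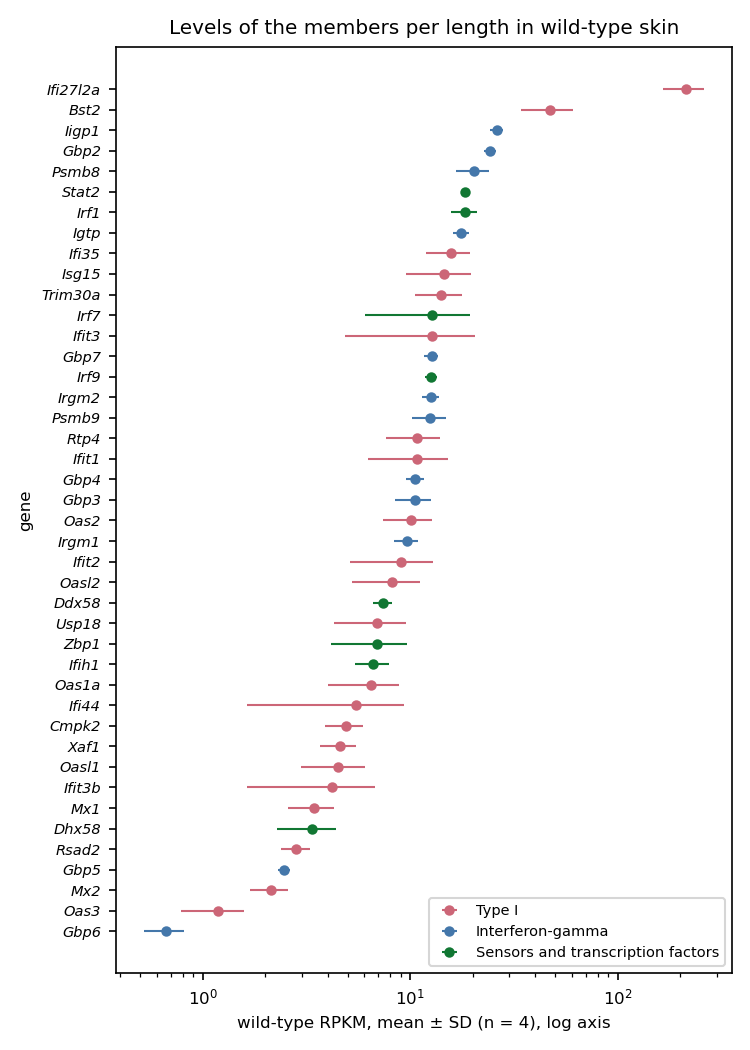
Wild-type level of each member in RPKM (log axis), mean ± SD of 4 libraries, coloured by group. Ifi27l2a stands at 212.5 RPKM, above the next member, Bst2, at 47.3 RPKM, and Gbp6 is lowest at 0.665 RPKM.

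Among the interferon-gamma members, the 6 guanylate-binding proteins (Gbp), large GTPases that attack the membranes around intracellular microbes, had a median log2 fold change of -0.40, with 6 of 6 below 0. Gbp4 (ENSMUSG00000079363, chr5:105115767-105139586, minus strand) had 79.5, 72.8, 90.2 and 74.6 CPM in the wild-type libraries and 49.0, 48.4, 43.3 and 57.5 CPM in the knockout libraries. The lowest wild-type library was above the highest knockout library. Gbp4 fell by 0.68 ± 0.10 on the log2 scale (SE; edgeR adjusted p = 0.01697). The call did not hold without knockout replicate 1 (adjusted p = 0.05387) or knockout replicate 2 (0.07988).

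Gbp3 (ENSMUSG00000028268, chr3:142560026-142573209, plus strand) had 27.7, 43.5, 33.7 and 32.0 CPM in wild type and 24.5, 25.3, 24.7 and 21.5 CPM in knockout. The groups did not overlap, but the wild-type libraries spread more widely than the knockout ones, and the log2 fold change of -0.51 ± 0.13 was not called (edgeR adjusted p = 0.0815). It passed with DESeq2 (0.02129), with limma voom (0.02937) and with no filter on low counts (0.0247). Gbp2 had 58.1, 66.6, 61.9 and 57.5 CPM in wild type and 59.0, 59.8, 55.6 and 61.0 CPM in knockout, which overlap. Its log2 fold change was -0.05 ± 0.07. Gbp5, which also promotes inflammasome assembly, had a log2 fold change of -0.28, Gbp6 of -0.56 and Gbp7 of -0.21, none of them called. The values of Gbp6 are uncertain as to their source, because 70.7% of its 50-base words occur in another annotated gene.

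The immunity-related GTPases Iigp1, Igtp, Irgm1 and Irgm2, which act on the same microbial vacuoles, had a median log2 fold change of -0.23, with 4 of 4 below 0. Iigp1 had 80.0, 84.8, 73.5 and 86.5 CPM in wild type and 65.1, 70.2, 53.6 and 72.3 CPM in knockout. The lowest wild-type value was just above the highest knockout value, and the log2 fold change was -0.31 ± 0.10 (edgeR adjusted p = 0.1358). Igtp had 35.6, 31.8, 35.9 and 39.1 CPM in wild type and 26.3, 28.1, 24.6 and 34.3 CPM in knockout. Knockout replicate 4 lay within the wild-type range, and the log2 fold change was -0.33 ± 0.12 (edgeR adjusted p = 0.1622). Irgm1 and Irgm2, regulators of the other GTPases of the family, had log2 fold changes of -0.11 and -0.15.

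Psmb8 and Psmb9 encode catalytic subunits of the immunoproteasome, which cuts proteins into peptides for display to CD8 T cells. Psmb9 had 54.4, 44.2, 34.6 and 49.4 CPM in wild type and 34.7, 36.8, 29.6 and 32.2 CPM in knockout. Wild-type replicate 3 lay within the knockout range, and the log2 fold change was -0.46 ± 0.13 (edgeR adjusted p = 0.1086). Without that library it was -0.56 and passed (0.01545), in a fit that called 3.32% of all genes lower and 3.49% higher. Without any other single library Psmb9 was not called (edgeR adjusted p from 0.1166 to 0.2701). Psmb8 had a log2 fold change of -0.31 ± 0.13 (edgeR adjusted p = 0.2111) and was also called without wild-type replicate 3. Psmb9 shares 212 exon bases with Tap1 on the opposite strand, and the sources used here do not give the strand setting of the counting. Over all 12 interferon-gamma members the median log2 fold change was -0.31, 12 of 12 were below 0 and 1 was called; of all genes tested, 53.3% were below 0.

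Of the 4 transcription factors, Irf1 fell and the other 3 were not called. Irf1 (ENSMUSG00000018899, chr11:53770014-53778374, plus strand) had 79.9, 58.4, 81.0 and 71.8 CPM in wild type and 51.0, 47.2, 44.6 and 50.4 CPM in knockout. All 4 knockout libraries were below the lowest wild-type library, replicate 2. Irf1 fell by 0.59 ± 0.11 on the log2 scale (SE; edgeR adjusted p = 0.03349). The call ended without wild-type replicate 1 (adjusted p = 0.08161), wild-type replicate 4 (0.0748), or knockout replicate 1 (0.07707), 2 (0.118), 3 (0.07651) or 4 (0.116), while the fold change stayed between -0.62 and -0.54 in those fits.

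Irf9, the DNA-binding part of the complex that type I interferon activates, had 72.8, 64.8, 62.9 and 70.8 CPM in wild type and 57.6, 61.0, 60.7 and 61.7 CPM in knockout. The groups did not overlap, though wild-type replicate 3 and knockout replicate 4 lay close together, and the log2 fold change was -0.17 ± 0.07 (edgeR adjusted p = 0.2336). Its partner Stat2 had 83.8, 78.8, 79.7 and 80.7 CPM in wild type and 78.8, 79.0, 86.1 and 85.9 CPM in knockout, with a log2 fold change of 0.03 ± 0.07. Irf7, which amplifies type I interferon production, ranged from 29.0 to 85.1 CPM in wild type and from 35.2 to 55.2 CPM in knockout, and its log2 fold change was -0.08 ± 0.31.

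The 4 sensors had log2 fold changes above 0, with a median of 0.11, and 0 of 4 were called. Ifih1 (MDA5), a sensor of long double-stranded RNA, had 43.9, 67.0, 57.3 and 48.9 CPM in wild type and 64.3, 58.7, 54.6 and 60.2 CPM in knockout, which overlap. Zbp1, a sensor of Z-form nucleic acid, had 19.6, 37.2, 14.9 and 25.4 CPM in wild type and 26.6, 30.1, 25.7 and 27.5 CPM in knockout. The wild-type values spread both above and below the knockout ones. Ddx58 (RIG-I), which detects short RNA with a triphosphate end, had 49.7, 59.1, 52.7 and 46.5 CPM in wild type and 54.8, 55.9, 49.4 and 56.9 CPM in knockout. The log2 fold changes of Ifih1, Zbp1 and Ddx58 were 0.13 ± 0.12, 0.18 ± 0.23 and 0.06 ± 0.09, and that of Dhx58 (LGP2), a related RNA-binding regulator, was 0.08 ± 0.20.

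Among the type I members, the Oas genes encode synthetases of the oligoadenylate messenger that activates RNase L, and the Oasl genes related proteins. They had log2 fold changes above 0 for 5 of 5 genes, with a median of 0.40 and 0 called. Oas3 (ENSMUSG00000032661, chr5:120753098-120777661, minus strand) had 6.88, 12.6, 6.74 and 7.36 CPM in wild type and 17.7, 14.2, 10.9 and 14.96 CPM in knockout. Wild-type replicate 2 lay above knockout replicate 3, and the other 3 wild-type libraries lay below all knockout libraries. The log2 fold change was 0.79 ± 0.22 (edgeR adjusted p = 0.09658). Without wild-type replicate 2 it was 1.05 (0.01291), which passes the threshold, in a fit that called 0.970% of all genes higher. Without any other single library Oas3 was not called (edgeR adjusted p from 0.0938 to 0.2388).

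Oasl1 (ENSMUSG00000041827, chr5:114923240-114937915, plus strand) had 13.1, 13.6, 5.81 and 14.5 CPM in wild type and 17.8, 18.9, 17.9 and 18.5 CPM in knockout. It was the member whose knockout libraries all lay above the wild-type ones, with wild-type replicate 3 far below the rest. The log2 fold change was 0.63 ± 0.23 (edgeR adjusted p = 0.1756). Without wild-type replicate 3 it was smaller, 0.42, and passed the threshold (0.03039), in the fit that called 3.49% of all genes higher. Without any other single library Oasl1 was not called (edgeR adjusted p from 0.1581 to 0.3365). Oas1a, Oas2 and Oasl2 had log2 fold changes of 0.40, 0.36 and 0.31. Oas1a shares 57.6% of its 50-base words with other annotated genes, so its reads are uncertain as to their source.

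The dynamin-like GTPases Mx1 and Mx2, which block replication of several viruses, had log2 fold changes of 0.39 ± 0.18 and 0.35 ± 0.17. Mx1 had 10.9, 16.7, 9.48 and 13.0 CPM in wild type and 20.2, 15.5, 13.2 and 16.6 CPM in knockout. Mx2 had 8.41, 9.49, 5.73 and 7.24 CPM in wild type and 9.29, 9.58, 8.62 and 12.0 CPM in knockout. For both, wild-type replicate 2 lay within the knockout range. Trim30a (ENSMUSG00000030921, chr7:104409025-104465193, minus strand), a regulator of innate signalling, had 52.5, 76.3, 41.1 and 62.3 CPM in wild type and 70.1, 74.9, 82.0 and 75.3 CPM in knockout. Again wild-type replicate 2 alone reached the knockout range, and the log2 fold change was 0.38 ± 0.16 (edgeR adjusted p = 0.2238).

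The Ifit genes, whose proteins bind foreign RNA and block its translation, had log2 fold changes of 0.28 (Ifit1), -0.08 (Ifit2), -0.06 (Ifit3) and -0.07 (Ifit3b), each with a standard error between 0.25 and 0.36. Ifit1 had 25.9, 42.6, 13.9 and 31.9 CPM in wild type and 36.6, 39.0, 29.4 and 33.7 CPM in knockout. The knockout values all lay inside the wild-type range. Ifit3 and Ifit3b, which share 51.2% of the 50-base words of Ifit3 and the promoter stretch shown above, were both highest in wild-type replicate 2, at 42.6 and 16.01 CPM, against at most 17.0 and 6.37 CPM in the other wild-type libraries.

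The other type I members had log2 fold changes between -0.15 and 0.09, and none was called. Cmpk2, a mitochondrial nucleotide kinase, had the lowest, with 14.4, 19.8, 12.1 and 16.3 CPM in wild type and 17.4, 12.5, 12.0 and 14.5 CPM in knockout (log2 fold change -0.15 ± 0.17). Bst2 had 42.5, 55.7, 27.0 and 45.7 CPM in wild type and 41.1, 38.7, 46.8 and 30.8 CPM in knockout, and Ifi27l2a had 110.2, 114.6, 66.6 and 102.2 CPM and 90.5, 121.9, 111.7 and 73.9 CPM. For each of these 3 genes the groups overlapped. Isg15, a ubiquitin-like protein attached to other proteins, had a log2 fold change of 0.09, and Usp18, the enzyme that removes it and restrains the receptor, had 0.01. Rsad2 (viperin, -0.12), Rtp4 (-0.12), Ifi35 (-0.08), Xaf1 (-0.02) and Ifi44 (-0.01) make up the rest. Over all 22 type I members the median log2 fold change was 0.01, with 12 above 0 and 10 below.

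**Figure D4:**
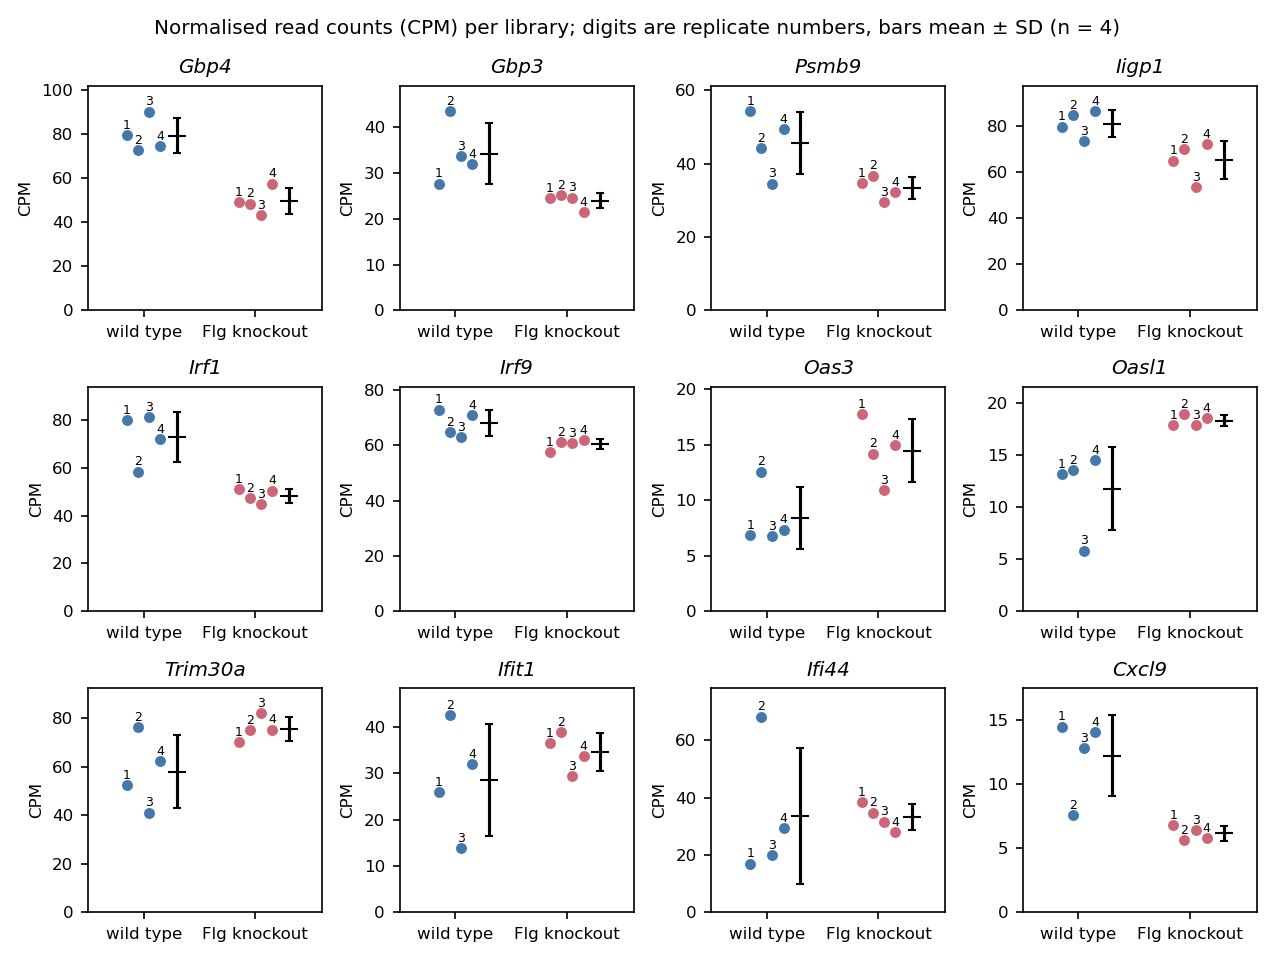
CPM in each library (points, with digits for the replicate number) and mean ± SD (bars, n = 4) for 11 members and the pathway gene Cxcl9, each panel on its own scale from 0. Gbp4 and Irf1 show no overlap between wild type and knockout, whereas Ifit1 and Ifi44 spread more widely in wild type than in knockout.

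The type I members varied more among the wild-type libraries than among the knockout libraries, and they varied together. Their median coefficient of variation of CPM was 31.2% in wild type and 13.5% in knockout, and it was greater in wild type for 21 of 22 members. Over all genes tested it was 15.6% and 9.85%, and greater in wild type for 74.0%. For the interferon-gamma members it was 9.60% and 9.89%, and for the sensors and transcription factors 16.5% and 6.46%. Wild-type replicate 2 was the highest wild-type library for 19 of 22 type I members (86.4%, against 25.4% of all genes), and wild-type replicate 3 the lowest for 16 of 22 (72.7%, against 29.4%). Ifi44 had 17.0, 68.3, 20.1 and 29.4 CPM in wild type, and between 28.1 and 38.6 CPM in knockout.

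The mean log2 level of each group was set against its wild-type mean, library by library. The type I level was -0.11, 0.54, -0.47 and 0.04 in wild-type replicates 1 to 4 and between 0.08 and 0.32 in knockout, which lies within the wild-type range. The interferon-gamma level was between -0.04 and 0.04 in wild type and between -0.46 and -0.24 in knockout, with no overlap. With wild-type replicate 2 left out, the median log2 fold change of the type I members was 0.46, with 19 of 22 above 0. With wild-type replicate 3 left out it was -0.07, and 9 of 22 were above 0.

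Levels of cell type marker genes were set beside these. The 12 markers of T cells and natural killer cells summed to between 63.6 and 75.8 CPM in wild type and between 37.0 and 52.7 CPM in knockout; 11 of 12 were below 0 and 2 were called lower, Cd2 and Ncr1, and every marker of this list was detected. Their mean log2 level was between -0.05 and 0.03 in wild type and between -0.80 and -0.24 in knockout. Neither these levels nor those of the interferon-gamma members overlapped between the groups. In knockout replicate 3 the marker level was the highest of the knockout libraries (-0.24) and the interferon-gamma level the lowest (-0.46). The part of these cells in the interferon-gamma values cannot be told apart from genotype in these libraries. With the T cell and natural killer cell level as a covariate the test called 0 of all 19099 genes, and the median of the interferon-gamma members was -0.49. Of the 4 B cell markers 1 was tested, Cd79b, and it was not called. Their sum did not overlap between the groups, at 1.15 to 2.57 CPM in wild type and 0.561 to 0.9996 CPM in knockout. Among 8 macrophage and dendritic cell markers, 3 were above 0, 5 below and 1, Mrc1, was called higher (edgeR adjusted p = 0.04827). No marker of neutrophils, fibroblasts, endothelium or skeletal muscle was called, and the sums of these lists overlapped.

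The 10 white adipocyte markers summed to between 4191 and 7437 CPM in wild type and between 5877 and 7388 CPM in knockout, with 9 of 10 above 0 and 0 called. The mean log2 level of the 10 markers was lowest in wild-type replicate 2 (-0.58) and 0.88 in wild-type replicate 3. Among the wild-type libraries this is the reverse of the order of the type I level. The 4 knockout libraries had adipocyte levels of 0.59 to 1.30, and there the order was not reversed. Both the adipocyte and the type I level were lowest in knockout replicate 3 (0.59 and 0.08) and next lowest in knockout replicate 4 (1.11 and 0.15). With the adipocyte level as a covariate the test called 0 of all genes. The type I median was then 0.73 with 21 of 22 above 0, and the interferon-gamma members had 11 of 12 below 0. Apart from wild-type replicate 3, every wild-type library was below every knockout library, so the part of this level in the type I values cannot be told apart from genotype. Of 5 markers listed for plasmacytoid dendritic cells, known for high type I interferon output, 0 were called. Their sum, 51.1 to 71.0 CPM in wild type and 45.8 to 63.8 CPM in knockout, was mostly Cox6a2 (47.6 ± 6.21 and 46.8 ± 5.41 CPM), which is also expressed in striated muscle, so it does not describe these cells. Siglech, the more specific marker, had 5.40, 13.96, 8.97 and 5.82 CPM in wild type and 1.63, 6.05, 9.91 and 4.79 CPM in knockout, which overlap (log2 fold change -0.62 ± 0.50, edgeR adjusted p = 0.5222). The 8 keratinocyte markers, which define the epidermal part of the tissue, summed to 10490 to 11140 CPM in wild type and 8789 to 10600 CPM in knockout, with 8 of 8 below 0 and 0 called. These sums overlapped. The mean log2 levels of the keratinocyte markers all but met, at -0.0279 to 0.0164 in wild type and -0.2738 to -0.029 in knockout. The part of the keratinocyte level in the interferon-gamma values was not tested.

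**Figure D5:**
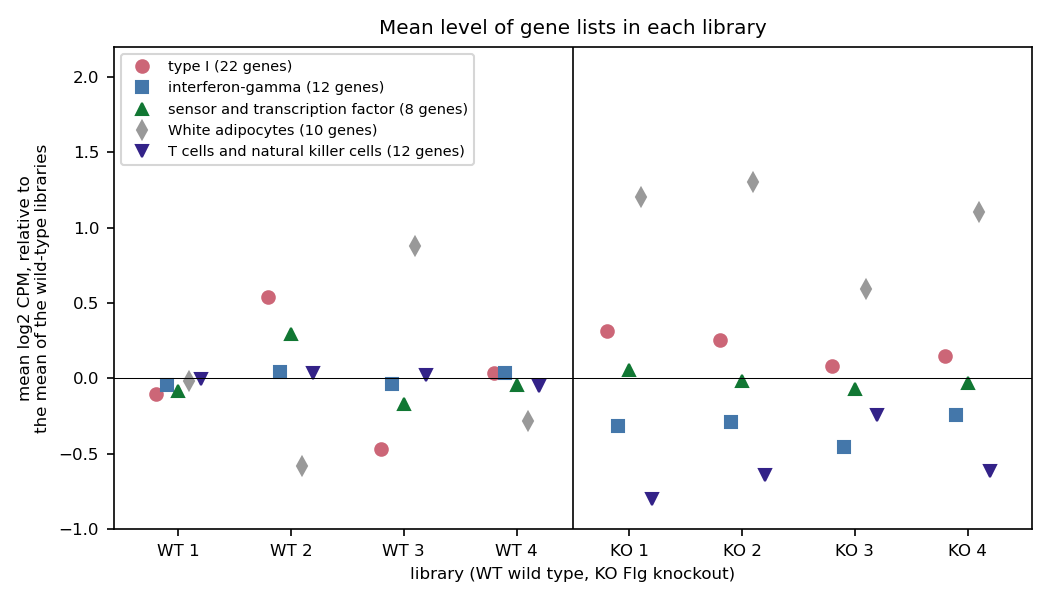
Mean log2 CPM of the 3 groups of members and of 2 marker lists in each library, relative to the mean of the wild-type libraries. The interferon-gamma members and the T cell and natural killer cell markers lie below 0 in all knockout libraries, while the type I members range from -0.47 to 0.54 in wild type and the adipocyte markers from -0.58 to 0.88.

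The ligands themselves were near the limit of detection. Ifng, the interferon-gamma gene, had 17, 7, 6 and 6 reads in the wild-type libraries and 4, 1, 2 and 4 in the knockout libraries, too few for the test. The totals were 36 and 11 reads. Of the type I ligands, Ifnk had 6 reads in all wild-type and 6 in all knockout libraries, Ifnz 7 and 4, and Ifnb1 2 reads, both in knockout replicate 1. Ifna13 had 3 reads and Ifna1 had 1, also only in knockout replicate 1, the library with the most counts. Ifna2 had 1 read, in wild-type replicate 2. The type I genes Ifna4, Ifna5 and Ifne and the interferon-lambda (type III) genes Ifnl2 and Ifnl3 had 0 in every library. A count of 0 allows up to 3 counts, which corresponds to between 0.0788 and 0.160 CPM depending on the library, for counting error only. Of the receptors and kinases, 9 of 9 were tested and 0 called; Ifnar1 and Ifnar2 of the type I receptor had log2 fold changes of 0.00 and -0.05, and Ifngr1 and Ifngr2 of the interferon-gamma receptor 0.21 and -0.10. Jak1, the kinase both pathways use, had 308.1, 286.6, 344.4 and 314.6 CPM in wild type and 356.0, 358.1, 386.2 and 381.2 CPM in knockout. It was the gene of these 9 whose groups did not overlap, with a log2 fold change of 0.24 ± 0.08 (edgeR adjusted p = 0.1584); DESeq2, limma voom and the edgeR fit without wild-type replicate 3 called it higher. Wild-type levels of these 9 genes ranged from 4.90 RPKM for Ifnlr1 to 52.1 RPKM for Ifngr1.

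Of a wider list of 102 pathway genes that are not members, 88 were tested, 0 were called higher and 1 lower, and the median log2 fold change was -0.09. Over all genes tested, 0.712% were called higher and 0.702% lower. At an unadjusted p below 0.05, 6 of the 88 were higher and 14 lower, against 8.64% and 10.9% of all genes. Cxcl9, a chemokine that draws T cells and is induced by interferon-gamma, had 14.5, 7.55, 12.8 and 14.0 CPM in wild type and 6.79, 5.62, 6.41 and 5.76 CPM in knockout. The groups did not overlap, with wild-type replicate 2 nearest the knockout libraries, and Cxcl9 fell by 0.99 ± 0.19 on the log2 scale (edgeR adjusted p = 0.04161). The call ended in 6 of the 8 fits that leave out 1 library, those without wild-type replicate 1 or 4 or any knockout library, where adjusted p ran from 0.07924 to 0.1395.

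Further pathway genes with small unadjusted p were not called. Tgtp1, a GTPase of the Irg family, had 3.52, 3.72, 3.54 and 4.12 CPM in wild type and 1.87, 2.41, 1.83 and 2.62 CPM in knockout (log2 fold change -0.78 ± 0.17, edgeR adjusted p = 0.05369). All 4 knockout values lay below the wild-type ones. Tap1, the peptide transporter beside Psmb9, had a log2 fold change of -0.29 ± 0.09, and Psme2, a proteasome activator subunit, -0.38 ± 0.11; the groups of both did not overlap.

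Ifi205, of the family of interferon-induced DNA-binding proteins, went the other way from these. It had 80.2, 56.3, 38.4 and 77.3 CPM in wild type and 112.6, 135.7, 122.0 and 108.1 CPM in knockout. Every knockout library was above every wild-type library, and the log2 fold change was 0.92 ± 0.20 (edgeR adjusted p = 0.0564).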

How the data were processed

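Reads from whole back skin were aligned to mm10 with GSNAP and assigned to genes with featureCounts 1.6.2, per the submitters' processing notes. The deposited values are whole-number counts per gene for 8 libraries, not normalised, with an exon length for each gene in a separate column of another unit. Per the labels the library kit was a strand-specific one, whereas the series design text names a SMART protocol. Whether counting used strand, and how reads matching more than 1 position were treated, is not given in the sources used here. The table held 49671 genes, of which 49326 matched a symbol, and 92 spike-ins left out.

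Counts were fitted with edgeR 4.0.16 (R 4.3.3; TMM factors, filterByExpr, robust quasi-likelihood test, genotype only), with Benjamini-Hochberg adjustment over 19099 genes and a threshold of 0.05. CPM use TMM library sizes, RPKM the exon length given in the table. Alternatives were other scalings, DESeq2 1.42.0, limma 3.58.1 voom with quality weights, other filters, marker levels as covariates, and leaving out libraries. The pair wild-type replicates 2 and 3 was left out after seeing the data. Gene positions and exon overlaps come from the exon coordinates deposited with the counts, and 50-base words from GENCODE transcripts of GRCm38. Fitting was tested on simulated data. No libraries agreed within counting noise, and the labels give no replicate numbers; they were numbered in accession order.

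Every member was named. Values in every library were given for Flg, called members and, in each group, the 5 with the smallest unadjusted p, the extremes of fold change and the 2 highest per length, and for the 6 pathway genes with the smallest unadjusted p, of which 1 is not reported here. Jak1, Siglech and Cox6a2 were named after their values were seen. The members and lists were chosen with earlier results of these data known.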

Additional observations from a re-analysis of the deposited data

Results flagged for a closer look

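Of 60 groups of 4 libraries examined, 2 held a library far from the other 3; chance flags about 1 in 20 groups. For Oas3, wild-type replicate 2 stood at 12.57 CPM, with the next library at 7.36 and the lowest at 6.74 CPM. For Oasl1, wild-type replicate 3 stood at 5.814 CPM, with the next at 13.1 and the highest at 14.5 CPM.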

How the results depend on the processing

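All genes called numbered 270, and 1142 with DESeq2, 2535 with voom, 502 with no filter, 0 with either covariate and 4350 with wild-type replicates 2 and 3 left out, a choice made after seeing the data; leaving out 1 library gave 11 to 1325. Members called higher numbered 0, and 1 with DESeq2 (Oas3), 5 with voom (Oas2, Oas3, Oasl1, Oasl2, Trim30a), 7 with the pair left out, and 0 to 2 without 1 library. Members called lower numbered 2, and 3 with DESeq2 or no filter (Gbp3, Gbp4, Irf1), 5 with voom (those and Psmb8, Psmb9), 6 with the pair left out, 0 with either covariate, and 0 to 4 without 1 library. DESeq2 called 1.63% of all genes higher and 1.52% lower, and the fit with no filter 0.645% and 0.739%, each over 36270 genes. Voom called 6.15% higher and 7.13% lower, and the fit without the pair 10.6% and 11.4%. Fits without 1 library called 0.0463% to 3.49% higher and 0.0103% to 3.32% lower, with the largest shares without wild-type replicate 3. The member counts of DESeq2, voom and the fit without the pair thus stand against higher backgrounds than those of the main fit.

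The type I median was 0.73 with the adipocyte covariate, 0.36 with the pair left out and -0.074 to 0.46 without 1 library. The interferon-gamma median was -0.49 with the T and natural killer cell covariate and -0.34 to -0.25 without 1 library. The sensor and transcription factor median was 0.21 with the pair left out and 0.00 to 0.19 without 1 library. Pathway genes called numbered 1, and 2 with upper-quartile factors or no filter, 6 with DESeq2, 16 with voom, 0 with either covariate, 27 with the pair left out and 0 to 7 without 1 library. They stand against the shares of all genes given above, and with upper-quartile factors against 0.775% higher and 0.874% lower.

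Direction reversed for Gbp2 (0.0029 with voom, 0.043 with the pair left out), Ifih1 (-0.018), Ddx58 (-0.070) and Mx1 (-0.17) with the T and natural killer cell covariate, Cmpk2 (0.19) and Bst2 (0.60) with the adipocyte covariate, and Bst2 with the T and natural killer cell covariate (0.14) and without wild-type replicate 2 (0.035; -0.28 to 0.035 without 1 library). Ifi27l2a reversed with voom (-0.070), with the pair left out (-0.080) and without wild-type replicate 3 or knockout replicates 2 or 3 (-0.13 to 0.13 without 1 library). None of these was called. The cause was not tested. Over all alternatives for single named genes, 386 values kept direction and side of the threshold, 37 passed it newly and 22 no longer did. Low counts limit the ligands. No paired analysis was possible because the labels carry no replicate numbers.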
